A study of Mus musculus with 6 samples.

Results

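The sensory hair cells (HCs) of the vestibular epithelium pass their signal to the vestibular nerve through ribbon synapses, and the transcripts described here encode 10 proteins of the release machinery of these synapses. The 10 genes were selected by symbol from the 52636 genes of the table: Otof, Cabp2, Ctbp2, Bsn, Pclo, Rims2, Rimbp2, Rab3a, Syp and Dnm1. Genes for voltage-gated calcium channels and for glutamate transporters were left out of the selection. All 10 were found once each, and all 10 received an adjusted p-value in the test across all genes.

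RNA-seq was carried out on vestibular epithelium from 3 Control and 3 IDPN male mice of the 129S1/SvImJ strain. The mice were 2 to 4 months old. IDPN (3,3'-iminodipropionitrile), a nitrile that damages HCs, was supplied at 30 mM in the drinking water over 8 weeks, whereas Control mice drank plain water. No mutant allele or transgene is recorded for either group. Every library holds the tissue of 1 animal, 2 utricles and 6 cristae together, so the values cover HCs, supporting cells, nerve endings and other cells at once.

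In an HC, a ribbon built from the protein RIBEYE holds synaptic vesicles next to calcium channels at the active zone. Calcium that enters through these channels acts on otoferlin, and the vesicles then fuse and release glutamate onto the afferent nerve fibre. Scaffold proteins such as Bassoon and the RIM family hold the ribbon, the channels and the vesicles in place, and spent membrane is taken back by endocytosis. In vestibular epithelium, afferent endings and efferent boutons lie against the HCs, and efferent boutons and neurons carry some of the same presynaptic proteins.

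Ctbp2 (ENSMUSG00000030970) produces 2 kinds of protein from different transcription starts: the transcriptional corepressor CtBP2, made in most cells, and RIBEYE, the main component of the ribbon. In GENCODE M21 the long coding transcript starts at position 133015248 of chromosome 7, inside the gene, and encodes 988 residues. Another complete coding transcript starts upstream at position 133123367 and encodes 445 residues. Of the 2964 coding bases of the long transcript, 1277 are shared with the other complete coding transcripts of the gene and 1687 are its own. The table has 1 count for the whole gene, so the Ctbp2 values below are the sum of RIBEYE and CtBP2 transcripts. A similar limit holds for Cabp2, whose 3 complete coding transcripts encode 203, 168 and 221 residues. The 250 bases before each RefSeq start found for these genes (GRCm38.p6) are shown, since a gene count does not separate starts. The upstream Ctbp2 start shown, 133081860, is not the start of the 445-residue transcript at 133123367. No complete coding transcript of Ctbp2 in GENCODE M21 starts there. Both strands were searched for the E-box CANNTG, the core motif of basic helix-loop-helix factors such as the HC factor ATOH1, and matches are in capitals. The motif reads the same on both strands.
Ctbp2, start at 133081860, window chr7:133081861-133082110, minus strand: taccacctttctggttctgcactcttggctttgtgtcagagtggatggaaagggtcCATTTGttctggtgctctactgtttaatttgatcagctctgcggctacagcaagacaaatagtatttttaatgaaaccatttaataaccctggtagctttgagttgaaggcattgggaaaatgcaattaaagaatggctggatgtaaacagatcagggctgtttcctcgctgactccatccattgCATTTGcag
Ctbp2, internal start at 133015247, window chr7:133015248-133015497, minus strand: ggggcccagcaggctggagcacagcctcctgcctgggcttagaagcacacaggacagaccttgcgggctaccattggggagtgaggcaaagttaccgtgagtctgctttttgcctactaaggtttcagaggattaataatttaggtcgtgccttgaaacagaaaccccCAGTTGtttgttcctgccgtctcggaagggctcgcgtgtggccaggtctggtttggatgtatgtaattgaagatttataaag
Cabp2, start at 4082488, window chr19:4082238-4082487, plus strand: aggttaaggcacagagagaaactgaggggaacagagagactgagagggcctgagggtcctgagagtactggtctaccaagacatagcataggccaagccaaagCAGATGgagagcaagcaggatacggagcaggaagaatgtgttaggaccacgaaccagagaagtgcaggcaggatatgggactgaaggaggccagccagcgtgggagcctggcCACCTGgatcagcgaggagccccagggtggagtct
Cabp2, start at 4083519, window chr19:4083269-4083518, plus strand: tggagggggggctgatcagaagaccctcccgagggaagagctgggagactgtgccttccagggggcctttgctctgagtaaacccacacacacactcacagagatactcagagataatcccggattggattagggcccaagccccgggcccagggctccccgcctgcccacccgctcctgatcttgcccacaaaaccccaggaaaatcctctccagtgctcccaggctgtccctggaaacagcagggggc
The internal Ctbp2 window holds 1 match, the upstream Ctbp2 window holds 2, the first Cabp2 window holds 2 and the second holds none. RefSeq windows were found for 8 of the 10 genes, 11 windows in all, of which 6 contained the motif. Among all 32851 windows of this length, 66.2% contained it.

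The libraries held between 40474847 and 43566332 estimated counts. The HC marker genes Myo7a (the HC myosin VIIa) and Pou4f3 (a transcription factor of HCs) were present in all 6 libraries, at 643 to 1074 and 3105 to 6831 normalized counts. The summed normalized count of 33 HC marker genes was 75193 to 80108 in Control and 52511 to 58671 in IDPN. Of the 33, 9 were called lower and 1 higher, beside 3.42% and 2.32% of all genes tested. With edgeR 7 were called lower, beside 2.19% of all genes, and with total-count scaling 4, beside 1.28%. The median log2-Fold_Change of the HC list was −0.54, and −0.30 with total-count scaling. The summed level of 13 neuronal markers was 7109 to 7239 in Control and 4557 to 4832 in IDPN. The neurofilament gene Nefl accounted for 1936 to 3213 of these counts, whereas the neuronal tubulin gene Tubb3 had 4.97 to 18.2. Nefm, Isl1 and Ntrk2 made up most of the remainder. Stmn2 did not exceed 18.2 normalized counts in any library. Nefh, Gap43 and Thy1 stayed below 9.79 or reached it at most, and were too low to be tested. The neuronal sum thus rests mainly on Nefl, Nefm, Isl1 and Ntrk2. The supporting cell list (15 genes, Sox2 at 109 to 237) summed to 332751 to 469757 in Control and 240395 to 281843 in IDPN. The Schwann cell list (9 genes) summed to 67775 to 126668 and 55067 to 66472. With median-of-ratios scaling, the lowest Control library thus exceeded the highest IDPN library in the HC, neuronal, supporting cell and Schwann cell sums. The size factors were 0.825, 0.866 and 1.12 in Control and 1.21, 0.996 and 1.07 in IDPN. This separation depends on them, and the sums were not compared on another scale. For the Schwann cell list the gap was narrow, and Mbp made up most of the sum, with 90760, 48177 and 43631 normalized counts in Control and 44319, 39877 and 36657 in IDPN. None of its 9 genes was called by DESeq2 or edgeR, with 4 and 3 at an unadjusted p under 0.05 in either direction. Of all genes, 9.15% were lower at that p with DESeq2, and 9.12% lower and 8.57% higher with edgeR. In IDPN 3 of the 9 were higher. Its median log2-Fold_Change was −0.24, and 0.05 with total-count scaling. Gjb6 and Gjb2 made up most of the supporting cell sum. Their means were 147249 and 105468 in Control and 76640 and 72484 in IDPN. Of the 15 supporting cell genes, 1 was called lower by DESeq2, beside 3.42% of all genes tested, and 0 by edgeR. In IDPN 4 of the 15 were higher, and the list median was −0.39, and −0.13 with total-count scaling. The macrophage list (10 genes) summed to 2215 to 3106 in Control and 2654 to 3901 in IDPN, and the stroma list (6 genes) to 20441 to 39051 and 35993 to 38675, both with overlap. The part of these cell types in the results below was not tested. In bulk tissue, fewer HCs and less RNA per HC cannot be told apart.

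Of the 10 release machinery genes, Otof alone was downregulated in IDPN mice, and none was upregulated. A gene was called when its DESeq2 Padj was under 0.05 and its fold change was above 1.5. Called lower were 3.42% of the 17650 genes tested and called higher 2.32%, and a single call among 10 genes cannot be set apart from those shares. The edgeR quasi-likelihood test also called Otof and no other member, with 2.19% of all genes called lower. The log2-Fold_Change was negative for 7 of the 10 genes and for 8534 of the 17650 genes tested. Its median was −0.27 for the 10, beside 0.02 for all genes tested. Every IDPN library lay below every Control library for 2 of the 10, Otof and Syp, and for 11.4% of all genes tested. The unadjusted DESeq2 p was under 0.05 for 3 of the 10, Otof, Cabp2 and Syp, all lower in IDPN, and for 9.15% of all genes tested in that direction. The libraries came from separate animals. In the sample titles the codes of the 3 Control animals begin alike and differently from those of the IDPN animals, and what these codes stand for cannot be told apart from exposure.

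**Figure D1:**
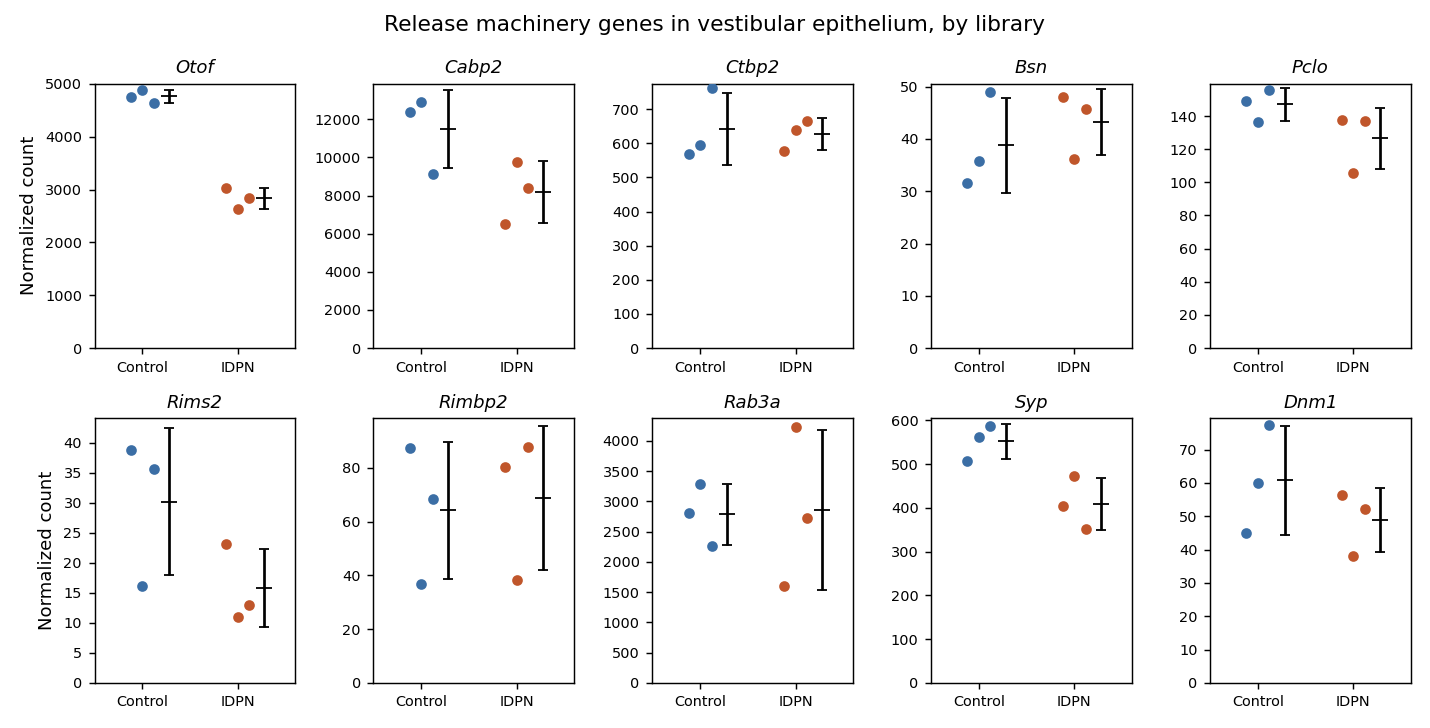
Normalized counts (vertical axes, each from 0) of the 10 release machinery genes in the 3 Control (blue) and 3 IDPN (orange) libraries, with the mean and SD of each group in black. Otof lies between 4646 and 4890 in Control and between 2631 and 3029 in IDPN, while the groups overlap for Ctbp2, Bsn, Pclo, Rims2, Rimbp2, Cabp2, Rab3a and Dnm1.

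Of the 2 calcium-sensing members, Otof was called and Cabp2 was not (gene positions are those of GENCODE M21 on GRCm38). Otof (ENSMUSG00000062372, chromosome 5, 30367062 to 30461932, minus strand) encodes otoferlin, the calcium sensor for vesicle fusion and replenishment at the HC ribbon synapse. Its normalized counts were 4752, 4890 and 4646 in the Control libraries and 3029, 2631 and 2834 in the IDPN libraries. The lowest Control library was well above the highest IDPN library, and the spread inside each group was small. The mean decreased by 40.6%, from 4763 ± 123 (SD, n = 3) to 2831 ± 199 (SD, n = 3). The log2-Fold_Change was −0.75 (SE 0.14, 95% interval −1.03 to −0.47, DESeq2 Padj = 1.71e-05), and edgeR gave an adjusted p of 0.0176. The call was made in 6 of 6 fits that left out 1 library. The interval includes a 1.5-fold decrease, and a test against a fold change of 1.5 did not call the gene.

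Cabp2 (ENSMUSG00000024857, chromosome 19, 4081578 to 4087340, plus strand) encodes a calmodulin-like calcium-binding protein that holds back the inactivation of the calcium channels of HCs. Its normalized counts were 12393, 12908 and 9141 in Control and 6510, 9755 and 8373 in IDPN. Control 3 lay inside the range of the IDPN libraries, whereas the other two Control libraries were above it. The log2-Fold_Change was −0.48 (SE 0.20, 95% interval −0.87 to −0.10), with a DESeq2 Padj of 0.136, and Cabp2 was not called. It passed both thresholds when Control 3 was left out (−0.62, DESeq2 Padj = 0.0181) and when IDPN 2 was left out (−0.63, DESeq2 Padj = 0.0451).

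None of the 5 scaffold members was called by DESeq2 or edgeR, and none had an unadjusted p under 0.05 with either. Ctbp2 (chromosome 7, 132987563 to 133124354, minus strand) had 568, 596 and 763 normalized counts in Control and 576, 638 and 666 in IDPN. The IDPN libraries all fell inside the Control range. The log2-Fold_Change was −0.04 (SE 0.19, DESeq2 Padj = 0.960) for RIBEYE and CtBP2 transcripts summed. With median-of-ratios scaling its 95% interval, −0.41 to 0.34, does not reach a 1.5-fold change in either direction. This limit depends on the scaling. Ctbp2 was at 0.19 (SE 0.27) with total-count scaling and at 0.46 (SE 0.21) with scaling on the HC marker genes. With these errors a 1.5-fold increase was not excluded on either of these scales. Of the 76-base words in the Ctbp2 transcripts, 3.58% also occur in another gene, mostly Fgfr2, which has exons overlapping Ctbp2 on the same strand.

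Bsn (ENSMUSG00000032589, chromosome 9, 108096022 to 108190384, minus strand) encodes Bassoon, which anchors the ribbon to the active zone. Its normalized counts were 31.5, 35.8 and 48.9 in Control and 48.0, 36.1 and 45.7 in IDPN, with overlapping groups. The log2-Fold_Change was 0.15 (SE 0.44, 95% interval −0.71 to 1.02, DESeq2 Padj = 0.921). Pclo (ENSMUSG00000061601, chromosome 5, 14514918 to 14863459, plus strand) encodes Piccolo, a large relative of Bassoon that ribbon synapses use in a short form. It had 149, 136 and 156 normalized counts in Control and 137.4, 105 and 137.2 in IDPN. Only Control 2 lay below any IDPN library, and the log2-Fold_Change was −0.21 (SE 0.27, 95% interval −0.74 to 0.31, DESeq2 Padj = 0.780). The gene models Gm26918 and Gm26954 have exons overlapping those of Pclo on the opposite strand, and 3.11% of its 76-base words were shared with another gene.

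Rims2 (ENSMUSG00000037386, chromosome 15, 39198261 to 39684372, plus strand) encodes RIM2, an active zone protein that helps to gather calcium channels at the ribbon. It was among the least abundant members, with 32, 14 and 40 raw counts in the Control libraries against 28, 11 and 14 in the IDPN libraries. Normalized counts were 38.8, 16.2 and 35.6 in Control and 23.2, 11.0 and 13.1 in IDPN. Control 2 lay below IDPN 1, so the groups overlapped. The log2-Fold_Change of −0.93 was the most negative of the 10, but its SE was 0.62 and its 95% interval ran from −2.15 to 0.29 (DESeq2 Padj = 0.486), and at this depth a difference was not detectable. Rimbp2 (ENSMUSG00000029420, chromosome 5, 128757791 to 128953486, minus strand) encodes a protein that links RIM proteins to calcium channels. Its normalized counts were 87.3, 36.9 and 68.5 in Control and 80.3, 38.2 and 87.7 in IDPN. The spread inside both groups was as wide as the whole range, and the log2-Fold_Change was 0.10 (SE 0.44, 95% interval −0.77 to 0.97, DESeq2 Padj = 0.952).

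The members of the vesicle and of membrane retrieval were not called by DESeq2 or edgeR either, and 1 of the 3, Syp, had an unadjusted p under 0.05 with both. Rab3a (ENSMUSG00000031840, chromosome 8, 70754679 to 70758677, plus strand) encodes a small GTPase of the vesicle membrane. It had 2803, 3283 and 2265 normalized counts in Control and 1596, 4234 and 2726 in IDPN. IDPN 1 was the lowest and IDPN 2 the highest of the 6 libraries. The log2-Fold_Change was 0.03 (SE 0.28, 95% interval −0.51 to 0.57, DESeq2 Padj = 0.973), and it was −0.37 without IDPN 2 and 0.33 without IDPN 1, neither of which was called.

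Syp (ENSMUSG00000031144, chromosome X, 7638471 to 7653256, plus strand) encodes synaptophysin, an integral protein of synaptic vesicles that is abundant in efferent boutons. Normalized counts were 508, 561 and 587 in Control and 404, 472 and 353 in IDPN. Every Control library was above every IDPN library. The log2-Fold_Change was −0.43 (SE 0.20, 95% interval −0.82 to −0.05) and did not pass the adjustment over all genes (DESeq2 Padj = 0.210). The antisense gene model Gm14703 overlaps Syp, and 15.6% of the 76-base words of Syp also occur in another gene. Dnm1 (ENSMUSG00000026825, chromosome 2, 32308471 to 32353338, minus strand) encodes dynamin 1, the GTPase that cuts endocytic vesicles from the membrane. Its normalized counts were 44.9, 60.0 and 77.4 in Control and 56.3, 38.2 and 52.3 in IDPN. The groups overlapped, and the log2-Fold_Change was −0.32 (SE 0.41, 95% interval −1.11 to 0.48, DESeq2 Padj = 0.784).

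These values depended on how the libraries were scaled. When libraries were scaled by their total counts, the median log2-Fold_Change of all genes tested moved from 0.02 to 0.27. Otof was then at −0.49 (SE 0.22, DESeq2 Padj = 0.196) and was not called, nor was any other member, with 1.28% of all genes called lower. Otof was the 1 member with an unadjusted p under 0.05 on this scale, where the share of all genes at that p was not counted. With median-of-ratios scaling, 9.15% of all genes tested were lower at that p. Without a share on the same scale, this count does not set Otof apart from all genes. Relative to the shifted median, Otof stood at −0.75. Taking off this median largely restores the median-of-ratios scale, so the value is not a separate check. The log2-Fold_Change of Ctbp2 was 0.19 and that of Pclo 0.04 on this scale, both with the sign turned, and the 8 others kept theirs.

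**Figure D2:**
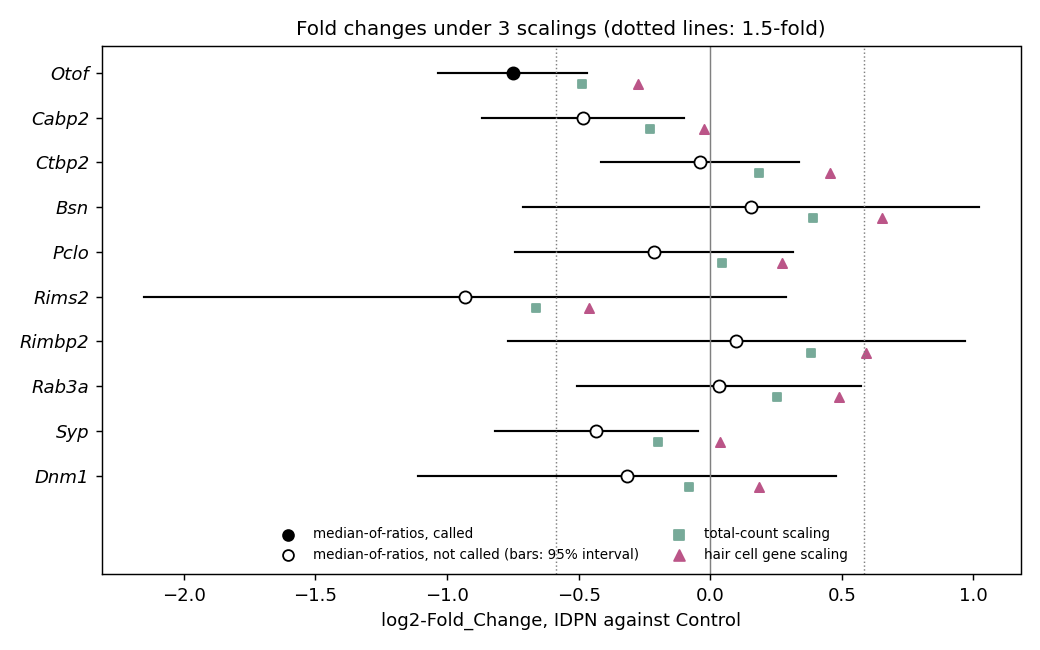
log2-Fold_Change of IDPN against Control (horizontal axis) for the 10 genes with median-of-ratios scaling (circles with 95% intervals, filled where called), total-count scaling (squares) and scaling on 33 HC marker genes (triangles). Otof has the only filled circle, at −0.75, and for each gene the squares and triangles lie to the right of the circle.

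To describe the release machinery relative to the HC content of each library, libraries were also scaled on the 33 HC marker genes, and each gene was expressed as a share of their summed count. No member was called by DESeq2 on the HC scale, where 1.28% of all genes were called lower and 26.8% higher. Of the members 1, Ctbp2, had an unadjusted p under 0.05, in the higher direction. The share of all genes at that p was not counted, but 26.8% were called higher under the stricter thresholds. This single member therefore cannot be set apart from all genes. The log2-Fold_Change of Otof was −0.28 (SE 0.19, DESeq2 Padj = 0.236) and that of Ctbp2 0.46 (SE 0.21, DESeq2 Padj = 0.0756). Cabp2 and Syp were near 0 on this scale, at −0.02 (SE 0.23) and 0.04 (SE 0.21).

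As a share of the summed HC marker count, Otof was 6.32%, 6.10% and 5.98% in Control and 5.54%, 4.48% and 5.40% in IDPN. Each IDPN share was below each Control share, a pattern found in 2.44% of all genes tested. Ctbp2 was 0.755%, 0.743% and 0.983% in Control and 1.05%, 1.09% and 1.27% in IDPN. Each IDPN share was above each Control share, a pattern found in 49.4% of all genes tested. Cabp2 made up 14.8% ± 2.62 (SD, n = 3) in Control and 14.8% ± 2.55 (SD, n = 3) in IDPN, a difference much smaller than the spread. Syp made up 0.711% ± 0.0411 (SD, n = 3) and 0.738% ± 0.0663 (SD, n = 3). The HC marker list itself contains the downregulated Pou4f3 (log2-Fold_Change −1.0, DESeq2 Padj = 9.34e-10) and Myo7a, which was at 0.01 (SE 0.23), so the reference was not uniform.

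**Figure D3:**
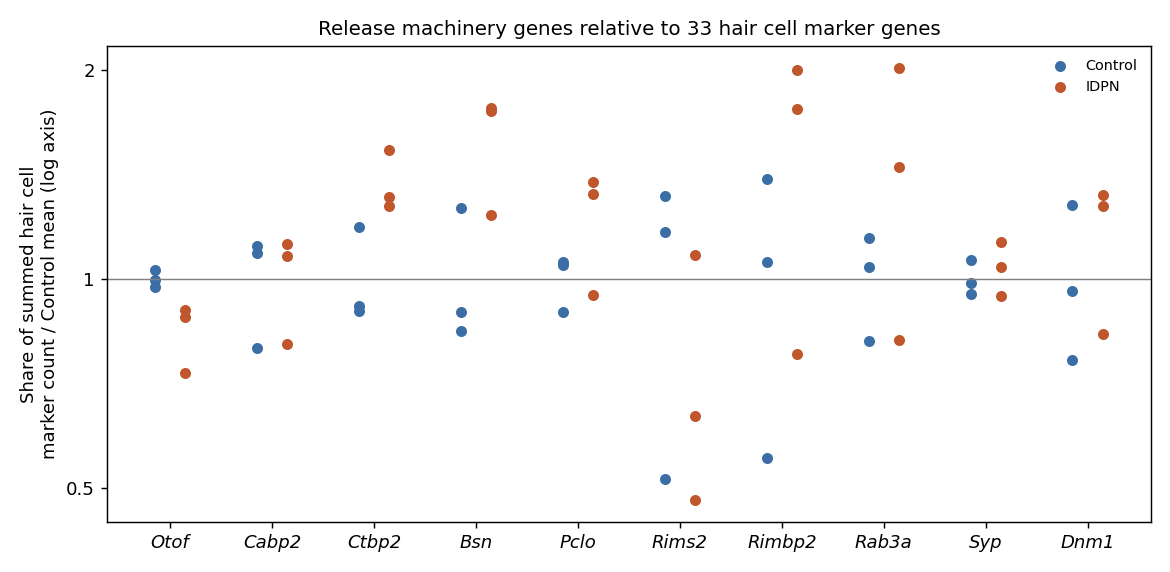
Count of each release machinery gene as a share of the summed count of 33 HC marker genes, divided by the Control mean (vertical log axis), in the 3 Control (blue) and 3 IDPN (orange) libraries. The IDPN points lie below the Control points for Otof and above them for Ctbp2, and the groups overlap for the other 8 genes.

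To leave out the scaling, the raw count of Otof was also divided by that of each of the other 9 members in the same library. There were 8.37, 8.21 and 6.09 Otof counts for each Ctbp2 count in Control and 5.26, 4.13 and 4.25 in IDPN. The groups did not overlap, and the mean log2 ratio decreased by 0.73. For Bsn the ratio was 151, 137 and 94.9 in Control and 63.1, 72.8 and 62.0 in IDPN. For Pclo it was 31.9, 35.9 and 29.8 in Control and 22.05, 24.95 and 20.7 in IDPN. These 3 were the ratios without overlap among the 9, and 68% of the 16901 genes with counts in all libraries gave such a ratio. For each of them the two-sided exact permutation p was 0.10, the smallest that 3 against 3 libraries allow, and 0.30 after Benjamini-Hochberg adjustment over the 9. For Cabp2 the ratio was 0.383, 0.379 and 0.508 in Control and 0.465, 0.270 and 0.338 in IDPN, with overlapping groups and an exact permutation p of 0.40.

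Compared per kilobase of the longest annotated transcript, the 10 genes covered a wide range of levels. In Control, Cabp2 was highest with 11146 ± 1983 (SD, n = 3) normalized counts per kb, followed by Rab3a with 1789 ± 327 (SD, n = 3) and Otof with 642 ± 16.5 (SD, n = 3). Syp, with 194 ± 14.2 (SD, n = 3), and Ctbp2, with 178 ± 29.4 (SD, n = 3), overlapped between libraries and could not be ordered. Dnm1, Rimbp2, Pclo and Rims2 followed at 13.2, 9.22, 7.32 and 6.29 normalized counts per kb, each overlapping with the next, and Bsn was lowest at 2.43 ± 0.569 (SD, n = 3). The order in IDPN was the same apart from Ctbp2 at 174 ± 12.8 (SD, n = 3) and Syp at 144 ± 21.0 (SD, n = 3), which changed places and again overlapped. The order of the means in Control was also the same when the union of all exons was used as the length. Oligo-dT priming and the annotated length both enter these levels.

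**Figure D4:**
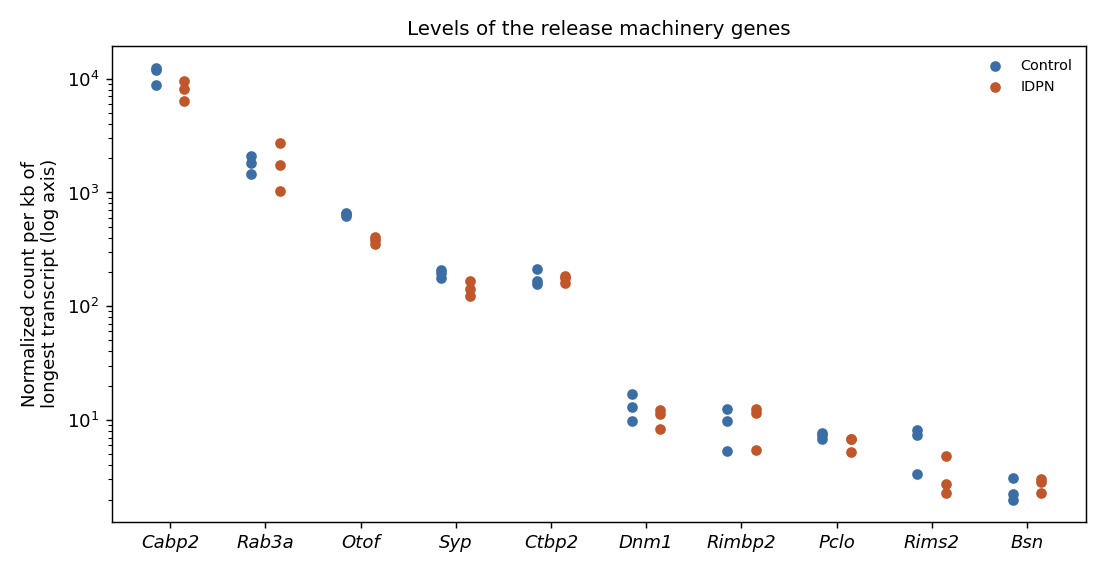
Normalized counts per kilobase of the longest annotated transcript (vertical log axis) for the 10 genes, in order of their Control mean, in the 3 Control (blue) and 3 IDPN (orange) libraries. Cabp2, Rab3a and Otof are the highest, Syp and Ctbp2 overlap, and Dnm1, Rimbp2, Pclo, Rims2 and Bsn all lie below 20.

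Over the 6 libraries, the genes with the profile most like that of Otof were A730017C20Rik, Osbp2 and Pcca. Their root mean square differences from Otof, in centred log2 units, were 0.0429, 0.0569 and 0.0601, the smallest among 11769 genes with a mean of at least 100 normalized counts. Of the other members in that set, Syp was the closest to Otof, in rank 716, and Ctbp2 was in rank 5165. The genes most like Ctbp2 were Gtf2ird1, Rpgrip1l and Ptpmt1, at 0.0224, 0.0306 and 0.0521. These are descriptions over 6 libraries that share their scaling.

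Around the 10 members, 108 further presynaptic genes were listed in 6 groups, of which 107 were in the table and 96 were tested. In IDPN, 11 were downregulated and 1 was upregulated, and the median log2-Fold_Change was −0.02 beside 0.02 for all genes tested. These are 11.5% and 1.04% of the 96, beside 3.42% and 2.32% of all genes. With edgeR 5 were called lower and 0 higher, beside 2.19% and 1.02% of all genes, and 17 were lower and 3 higher at an unadjusted p under 0.05, beside 9.12% and 8.57%. With total-count scaling 3 were called lower and 1 higher, beside 1.28% and 3.64% of all genes. With HC scaling 1 was called lower and 30 higher, beside 1.28% and 26.8% of all genes, so the number called higher was close to the share of the whole table. Of the downregulated genes named below, Synpr and Calm2 were also called with total-count scaling, and Synpr alone on the HC scale. The log2-Fold_Change was negative for 51 of the 96, beside 8534 of the 17650 genes tested.

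Of the 28 genes of the Rab3 cycle and of vesicle proteins 26 were tested, and 4 were downregulated, beside 3.42% of all genes tested. The largest decrease was that of Synpr, which encodes synaptoporin, a vesicle membrane protein of the synaptophysin family to which Syp belongs. Its normalized counts were 4962, 4460 and 3891 in Control and 949, 769 and 937 in IDPN. The highest IDPN library was far below the lowest Control library, and the log2-Fold_Change was −2.33 (SE 0.17, DESeq2 Padj = 2.83e-39). Synpr was called in each scaling, at −2.04 with total counts and −1.85 on the HC scale, and with edgeR (adjusted p = 0.000234). Svop, a vesicle protein related to transporters, was at 81.3, 60.0 and 101 in Control and 32.3, 29.1 and 39.2 in IDPN (log2-Fold_Change −1.27, SE 0.40, DESeq2 Padj = 0.0286). It was not called by edgeR (adjusted p = 0.0892) and kept its DESeq2 call in 1 of 6 fits that left out a library, the one without Control 2. The paralogs of Rab3a were not called. Rab3d was at 0.10 (SE 0.18), Rab3b at 0.95 (SE 0.48) and Rab3c at −0.61 (SE 0.43), and the synaptophysin-like gene Sypl was at −0.16 (SE 0.20).

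The SNARE group had 1 gene in each direction among 18 tested, beside 3.42% lower and 2.32% higher of all genes tested. Snap25, a plasma membrane SNARE protein of synaptic vesicle release, had 685, 598 and 722 normalized counts in Control and 411, 327 and 295 in IDPN. The groups did not overlap, and the log2-Fold_Change was −0.96 (SE 0.20, DESeq2 Padj = 0.000168, edgeR adjusted p = 0.0174). Stx3, the syntaxin found at ribbon synapses of the retina and in many epithelia, had 439, 358 and 397 in Control and 540, 769 and 559 in IDPN. For Stx3 the log2-Fold_Change was 0.65 (SE 0.21, DESeq2 Padj = 0.0385, edgeR adjusted p = 0.0822), and its call was kept in 1 of 6 fits that left out a library, the one without IDPN 1.

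In the active zone group, beside 3.42% of all genes tested, 1 of 14 genes tested was downregulated. This was Cask, a scaffold kinase that binds calcium channels and neurexins, with 1605, 1274 and 1207 normalized counts in Control and 649, 782 and 839 in IDPN. Cask stood at a log2-Fold_Change of −0.85 (SE 0.19, DESeq2 Padj = 0.000365, edgeR adjusted p = 0.0191). Ctbp1, the closest paralog of Ctbp2, was at 0.44 (SE 0.24), and Tspoap1, a RIM-binding protein like Rimbp2, was at −0.01 (SE 0.26). Rims1 had between 0 and 8.49 normalized counts and was too low to be tested.

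Among calcium sensors, 3 of 13 genes tested were downregulated, beside 3.42% of all genes tested. Of the calcium sensors edgeR called 0 lower, total-count scaling 2 and HC scaling 0. The calmodulin gene Calm2, which acts in nearly all cells, was at −0.96 (SE 0.18, DESeq2 Padj = 1.55e-05), and edgeR did not call it (adjusted p = 0.0747). Calm2 was called with total-count scaling (−0.69, DESeq2 Padj = 0.00665) and not on the HC scale (−0.50, DESeq2 Padj = 0.0711). Cabp1, the paralog of Cabp2, had at most 4.67 normalized counts in a library and was too low to be tested. In the endocytosis group 2 of 23 were downregulated, beside 3.42% of all genes tested. These were Snap91, a clathrin assembly protein, at −0.67 (SE 0.18, DESeq2 Padj = 0.00638) and Sh3gl2, endophilin A1, at −0.59 (SE 0.16, DESeq2 Padj = 0.00871). Snap91 was also called by edgeR (adjusted p = 0.0332) and lost its call without IDPN 1. Sh3gl2 was not called by edgeR (adjusted p = 0.0555) and lost its call without Control 1, Control 2 or IDPN 1. The other dynamins, Dnm2 at 0.05 (SE 0.15) and Dnm3 at −0.58 (SE 0.26), were not called. Neither of the 2 genes measured for the insertion of tail-anchored proteins was called. Also downregulated, and named after their values were seen, were Syt1 (synaptotagmin 1) at −0.79, Rab3ip at −0.70 and Dnajc5b at −0.67. With edgeR their adjusted p was 0.0615, 0.0535 and 0.0435, and only Dnajc5b was called. Syt1 kept its DESeq2 call only without Control 3 or IDPN 1, and Dnajc5b lost its call without IDPN 3. Snap25, Syt1 and Snap91 are also neuronal genes. The neuronal list had 3 of 10 genes tested called lower and none called higher by DESeq2, beside 3.42% and 2.32% of all genes. The 3 were Nefl, Nefm and Ntrk2. With total-count scaling 0 were called lower. In the main fit and with edgeR 1 was higher at an unadjusted p under 0.05, beside 8.57% of all genes with edgeR. The median of the list in the main fit was −0.52. Its members differed, with Nefl at −0.59 (SE 0.15, DESeq2 Padj = 0.00212, not called without Control 1, IDPN 1 or IDPN 2), Tubb3 at −0.20 (SE 0.91), Uchl1 at 0.53 (SE 0.43) and Prph at 1.51 (SE 0.63), the last 3 not called. The part of neurons in these values was not tested.

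**Figure D5:**
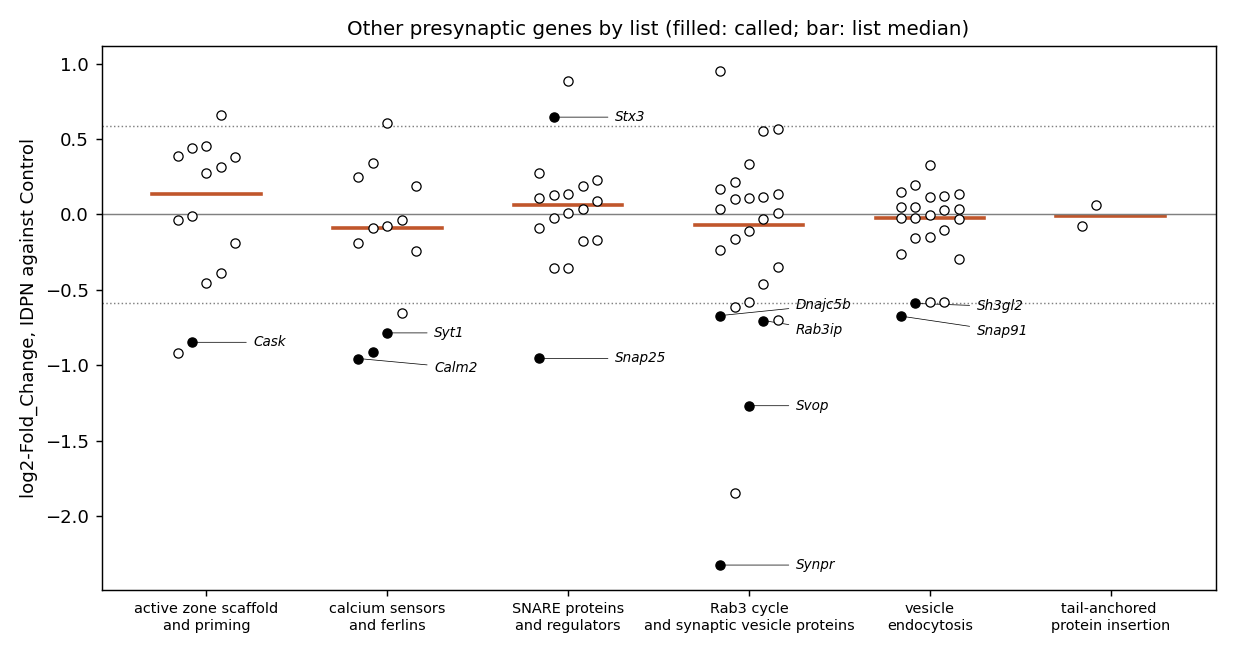
log2-Fold_Change of IDPN against Control (vertical axis) for 96 further presynaptic genes in 6 groups, filled where called, with the called genes of the text named, with the group median as a bar and 1.5-fold changes as dotted lines. Synpr is the lowest point at −2.33, Stx3 is the only gene called higher, and each median lies between −0.09 and 0.13.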

How the data were processed

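RNA was isolated from 1 animal per library and copied under a SMART-seq2 protocol with oligo-dT priming, starting from 6 to 11 ng of total RNA. The cDNA went through 8 PCR cycles and the library through 12. Molecular identifiers were not used, so 1 molecule can yield several reads. The authors mapped the reads to GRCm38 with STAR 2.5.3a and estimated gene counts with RSEM 2.3.0 on GENCODE M15, per the labels and the study's methods. The deposited values are these expected counts as whole numbers, without normalization or filtering. RSEM divides reads that match several genes, and the protocol does not mark strand.

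The 6 libraries were compared as Control and IDPN with the DESeq2 1.42.0 Wald test (R 4.3.3) over all genes, without covariates, scaled by median-of-ratios size factors. Genes with Padj under 0.05 and a fold change above 1.5 were called. edgeR 4.0.16 (quasi-likelihood, TMM, filterByExpr) was the first alternative, and the others were total-count scaling, scaling on 33 HC marker genes, TMM factors, a filter of at least 10 counts in 3 libraries, no independent filtering, a test against a 1.5-fold change and leaving out each library. Intervals are 95% Wald intervals. Ratios of Otof to other members used log2 of the raw counts and a two-sided exact permutation test. Likeness used log2(normalized count + 1). Positions, lengths and 76-base words came from GENCODE M21 on GRCm38, and start windows from RefSeq. From the other lists, the 2 called genes with the largest fold change in each list (mean of at least 50 normalized counts) and the closest paralogs of the members were named; 1 called gene that met this rule is not reported here. The scripts were tested on simulated counts. The members and lists were chosen with earlier results of these data known.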

Additional observations from a re-analysis of the deposited data

How the results depend on the processing

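Of the 10 release machinery genes, 1 was called with DESeq2, and 0 were called with total-count scaling, with HC gene scaling and in the test against a 1.5-fold change. Leaving out each library gave 1 to 2 calls, with Cabp2 added without Control 3 or without IDPN 2. Among further presynaptic genes, 11 were called lower, against 5 with edgeR, 3 with total-count scaling and 1 with HC gene scaling, and 9 to 10 when a library was left out. Called higher was 1, against 0 with edgeR, 0 without independent filtering, 30 with HC gene scaling and 0 to 1 when a library was left out. On the HC scale 0 members were called, and 0 to 1 when a library was left out, the 1 being Rab3a without IDPN 1. The sign turned for Ctbp2 (0.19) and Pclo (0.044) with total-count scaling. On the HC scale it turned for Ctbp2 (0.46), Pclo (0.27), Syp (0.039) and Dnm1 (0.19). Relative to the median of all genes on the HC scale, these 4 were at −0.04, −0.22, −0.45 and −0.31. Taking off that median largely restores the median-of-ratios scale, so these values are not a separate check. When a library was left out, Rimbp2 ran from −0.18 to 0.39, Ctbp2 from −0.12 to 0.11 and Rab3a from −0.37 to 0.33. Of 130 member values under alternatives, 112 kept their direction and their side of the thresholds. The cause of the difference between DESeq2 and edgeR was not tested. By length, 8 to 10 of the 10 ranks were kept in either group without 1 library. No paired analysis was run because each library came from a separate animal and the labels give no pairs.

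Rims2, Bsn, Dnm1 and Rimbp2 had fewer than 100 counts in every library, and their intervals allow changes well above 1.5-fold. Gene counts do not separate RIBEYE from CtBP2, and 3 animals in a group set the precision of all values.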
